A study of Mus musculus with 8 samples.

Results

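The transcripts described here belong to 10 genes listed for MHC class I antigen presentation: B2m, H2-K1, H2-D1, H2-T23, Tap1, Tap2, Tapbp, Erap1, Nlrc5 and Calhm6. They were chosen by name, and each was read from the transcript cluster (a set of probes summarized to 1 value) with the highest mean over 8 Affymetrix Mouse Gene 2.0 ST arrays. All 10 were bright enough to be tested, among 15101 rows of which 13998 name 1 gene and 1103 name several. Of the 10, 9 have a cluster that names them alone. H2-D1 was read only from a cluster annotated to both H2-Q2 and H2-D1, which is called the H2-Q2/H2-D1 cluster below. Values are log2 signals after robust multi-array averaging (RMA), so a difference of 1 is a 2-fold change.

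The arrays were made from mouse natural killer (NK) cells in 4 groups of 2 biological replicates. Day 0 cells were freshly isolated and untreated. Day 4 cells (acute activation) had been cultured with interleukin-2 (IL-2) at 1000 IU/mL and collected by adherence. Day 9 cells (chronic activation) had received IL-2 again on day 4, and the last group was day 9 cells that were also given KU55933 at 7.5 µM on day 4. KU55933 blocks ATM, which reports breaks in both DNA strands to the cell cycle machinery. The starting bone marrow was first cleared of CD90-bearing T cells. The protocol mentions a vehicle, but it is not stated that the untreated day 9 cells got one. The source label calls all samples IL-2 activated, also those of day 0. Strain, age and sex of the mice and the number of animals behind each replicate are not given in the labels, so the p-values measure the spread between the arrays of a group, whatever its source.

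A class I molecule is a polymorphic heavy chain (H2-K1 and H2-D1 in mice) paired with the invariant light chain beta-2 microglobulin, encoded by B2m. Peptides made by the proteasome are carried into the endoplasmic reticulum by the TAP1 and TAP2 transporter, trimmed by the aminopeptidase ERAP1 (also called ERAAP in mice) and fitted to the heavy chain with the help of tapasin, encoded by Tapbp. NLRC5 is a nuclear regulator that drives class I genes together with factors bound to the X and Y boxes of their promoters. NK cells read class I on other cells through inhibitory receptors, and H2-T23 encodes Qa-1, the nonclassical molecule seen by CD94/NKG2A. Calhm6 is no part of the presentation pathway: its product, also named INAM, is an interferon-induced membrane protein that takes part in NK cell activation by other cells, and it is described with the others because the list holds it.

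RefSeq promoter windows on GRCm38.p6 were at hand for 8 of the 10 genes, all but Tap2 and Nlrc5. The 250 bases before the annotated start are shown, 5′ to 3′, for 6 of the 8 genes, leaving out Erap1 and Tapbp. They are in lower case with motif matches in capitals. Motifs, searched on both strands, were the core of the interferon-stimulated response element (GAAA, any 2 bases, GAAA), the gamma-activated site (TTC, any 3 bases, GAA), the Y box bound by NF-Y (CCAAT, or ATTGG on the other strand), a core of the X2 box (TGACG) and the NF-kappaB site (GGGA, any 4 bases, CC). Matches to the NF-kappaB site on both strands overlap in the 3 windows that hold one. For H2-K1, the upstream one of 2 overlapping windows is given.
B2m (chr2:122147437-122147686, plus strand): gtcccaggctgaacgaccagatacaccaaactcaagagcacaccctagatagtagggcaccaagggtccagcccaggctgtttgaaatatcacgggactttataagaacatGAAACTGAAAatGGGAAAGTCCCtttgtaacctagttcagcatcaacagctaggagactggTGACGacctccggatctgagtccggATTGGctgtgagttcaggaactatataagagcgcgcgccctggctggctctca
H2-K1 (chr17:34000348-34000597, minus strand): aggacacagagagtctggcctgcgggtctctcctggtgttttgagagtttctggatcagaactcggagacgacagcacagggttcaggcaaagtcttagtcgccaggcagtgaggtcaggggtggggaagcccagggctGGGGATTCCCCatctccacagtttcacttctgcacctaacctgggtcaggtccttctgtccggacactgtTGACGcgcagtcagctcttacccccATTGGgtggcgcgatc
H2-D1 (chr17:35262844-35263093, plus strand): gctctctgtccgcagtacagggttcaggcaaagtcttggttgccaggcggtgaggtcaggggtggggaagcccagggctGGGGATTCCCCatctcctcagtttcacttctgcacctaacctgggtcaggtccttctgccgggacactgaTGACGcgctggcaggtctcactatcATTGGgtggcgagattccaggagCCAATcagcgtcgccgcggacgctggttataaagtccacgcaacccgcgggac
H2-T23 (chr17:36032702-36032951, minus strand): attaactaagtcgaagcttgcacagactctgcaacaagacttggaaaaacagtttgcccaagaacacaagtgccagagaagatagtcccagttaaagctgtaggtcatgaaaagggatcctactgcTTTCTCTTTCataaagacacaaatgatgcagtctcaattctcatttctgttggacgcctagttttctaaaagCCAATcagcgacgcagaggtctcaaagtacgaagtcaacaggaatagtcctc
Tap1 (chr17:34187306-34187555, plus strand): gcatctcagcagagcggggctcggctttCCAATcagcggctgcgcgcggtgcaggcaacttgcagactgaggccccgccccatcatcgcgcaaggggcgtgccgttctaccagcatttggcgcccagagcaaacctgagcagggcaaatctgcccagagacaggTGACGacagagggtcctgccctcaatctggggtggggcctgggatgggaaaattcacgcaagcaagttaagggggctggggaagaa
Calhm6 (chr10:34127973-34128222, minus strand): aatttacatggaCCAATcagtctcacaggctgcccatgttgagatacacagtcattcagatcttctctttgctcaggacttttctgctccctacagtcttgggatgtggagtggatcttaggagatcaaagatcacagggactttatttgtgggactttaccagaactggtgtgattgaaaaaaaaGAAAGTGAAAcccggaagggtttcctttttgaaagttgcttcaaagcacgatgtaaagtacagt

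The windows of B2m, H2-K1 and H2-D1 share 3 of the 5 motifs. In each, TGACG is followed by ATTGG with 25 bases from start to start, and an NF-kappaB match lies further upstream. The TGACG of B2m begins 78 bases before the start, that of H2-K1 41 and that of H2-D1 101. This spacing was noticed after the windows were seen, and 30 of all 32851 windows (0.0913%) hold it. An exact match to the response element core stands in the windows of B2m (139 bases upstream), H2-T23 (124) and Calhm6 (64), and in 2.98% of all windows. Only exact matches were searched, so an element that departs from this core, in H2-K1 or H2-D1 for instance, would not be marked. TGACG alone stands in 17.8% of all windows, Tap1 among them, CCAAT in 33.8%, the NF-kappaB site in 17.6% and the gamma-activated site in 7.02%, the last in none of the 8 genes. The Erap1 window holds none of the 5 motifs, and that of Tapbp holds CCAAT alone.

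On day 4 and on day 9 without inhibitor, the classical heavy chain H2-K1 and the regulator Nlrc5 read lower than on day 0. The peptide trimming enzyme Erap1 read higher in these bulk samples. Calhm6 was high on day 4 and near its fresh level on day 9. B2m, Tap1 and Tapbp moved little. The plot of the 10 genes by array shows these patterns on a common span of log2 units.

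**Figure D1:**
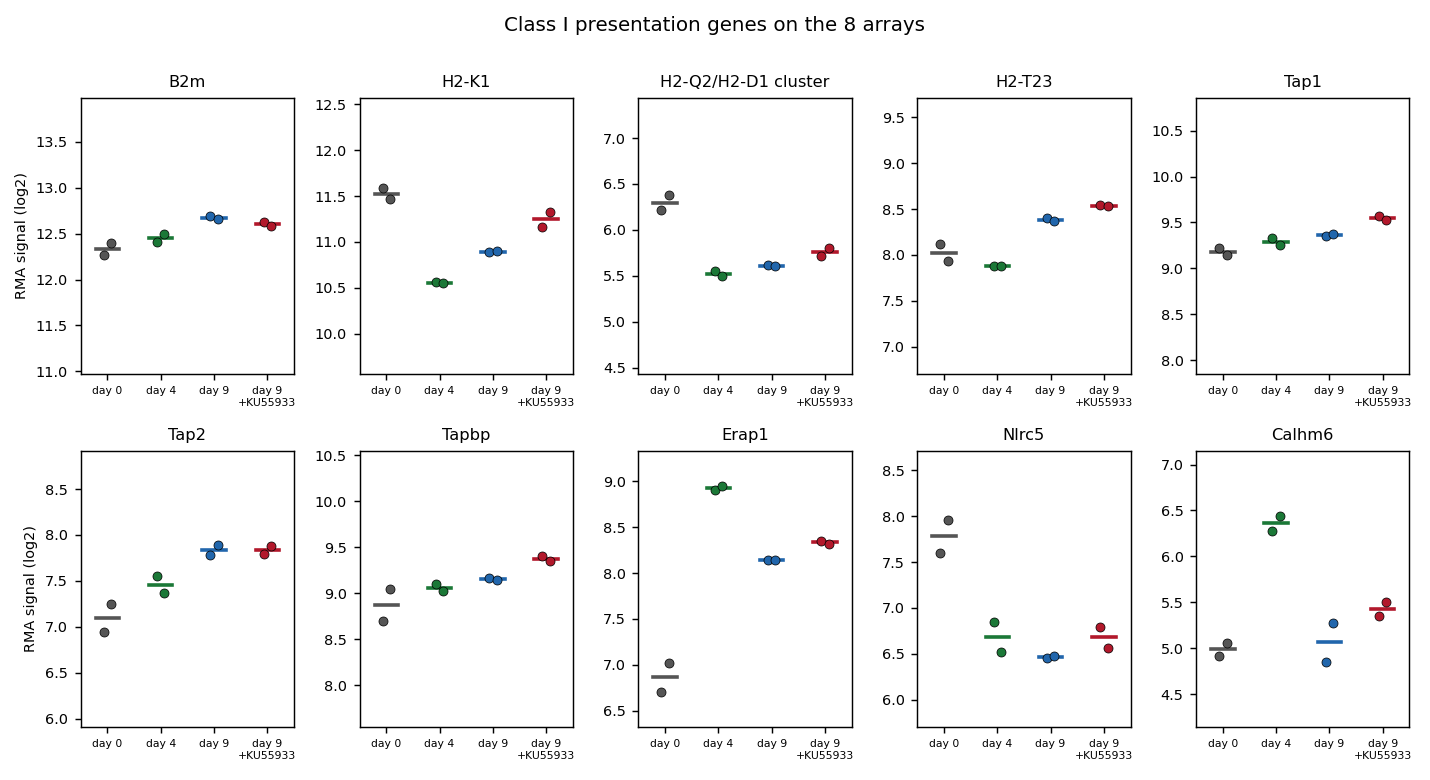
RMA signal (log2) of each of the 10 genes on the 8 arrays by group; points are single arrays, bars are means of 2 arrays, and every panel spans the same number of log2 units. H2-K1, the H2-Q2/H2-D1 cluster and Nlrc5 are highest on day 0, Erap1 and Calhm6 on day 4, and H2-T23, Tap1 and Tapbp with KU55933.

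Changes were tested with limma over all rows, and ± is the standard error of its fit to 2 arrays a group. From day 0 to day 4, 5 of the 10 genes passed an adjusted p of 0.05, beside 59.9% of all 15101 rows: 2 were higher (37.2% of all rows) and 3 lower (22.7%). From day 0 to day 9, 7 passed, beside 58% of all rows: 4 were higher (35.7%) and 3 lower (22.4%). From day 4 to day 9, 3 passed, beside 27.8%: 1 was higher (12.2%) and 2 lower (15.6%). With KU55933, 8 passed against day 0, beside 59%: 6 were higher (36.9%) and 2 lower (22.1%). Against day 4, 4 passed, beside 25.8%: 2 were higher (12.2%) and 2 lower (13.6%). Against day 9 without inhibitor 0 of the 10 passed, beside 0.92% of all rows, 0.675% higher and 0.245% lower.

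Arrays of the groups did not overlap for 9 of the 10 genes on day 4 against day 0 (78.7% of all rows), 9 on day 9 against day 0 (75.8%) and 10 on day 9 against day 4 (68%). With KU55933 they did not overlap for 10 against day 0 (77.1%) and 9 against day 4 (67%). An F test over the 4 groups called 7 of the 10, beside 65.7% of all rows, and missed B2m (adjusted p = 0.0791), Tap1 (0.0622) and Tapbp (0.0526). The median change of the 10 genes was 0.11 on day 4 and 0.23 on day 9 against day 0, beside 0.07 and 0.09 for all rows. Comparisons that share a group of arrays are not independent.

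**Figure D2:**
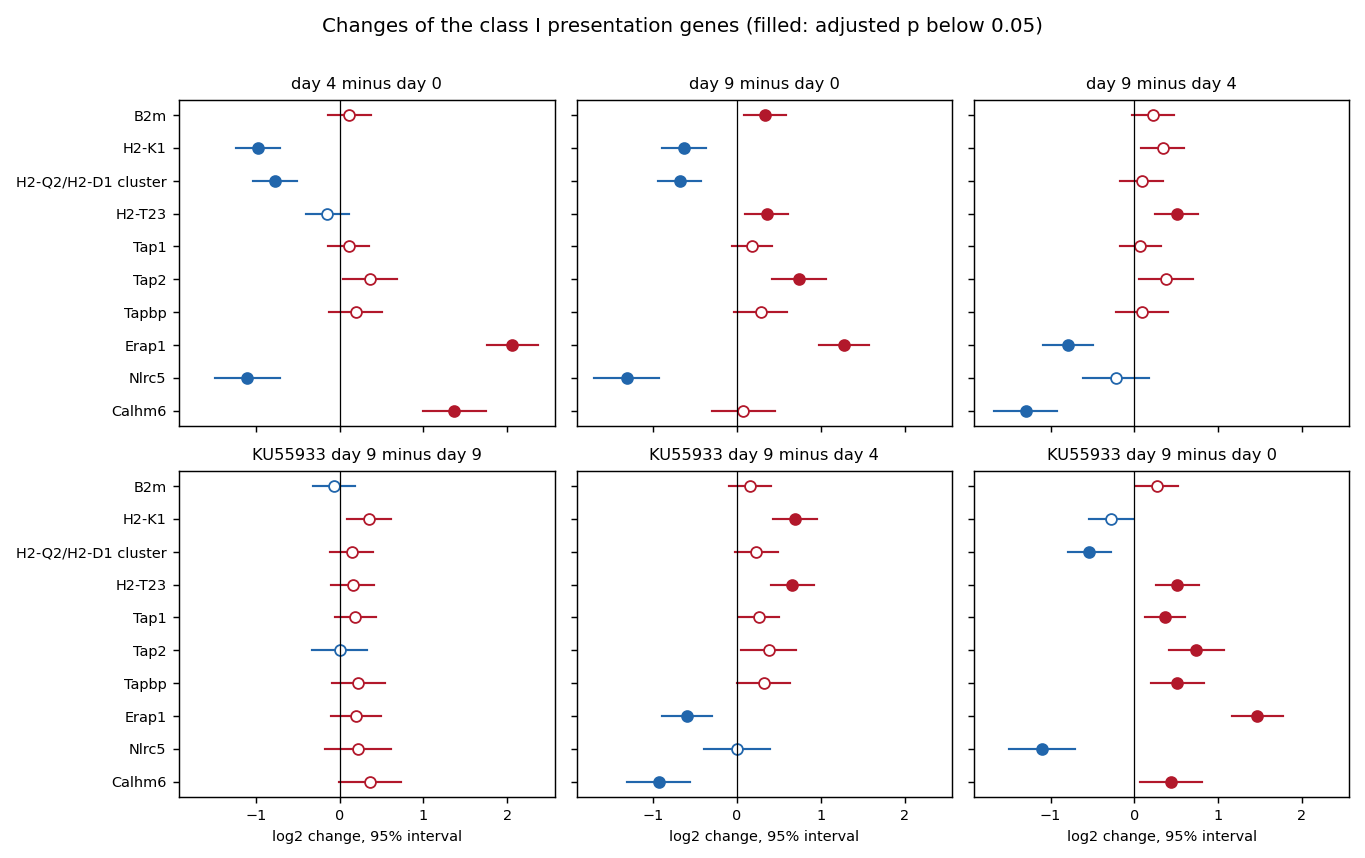
Log2 change of each gene in 6 comparisons, with the 95% interval from limma; red is higher and blue lower in the first group named, and filled points have an adjusted p below 0.05. Erap1 and Nlrc5 lie farthest from 0 in opposite directions in all 3 comparisons with day 0, and no point is filled for KU55933 against day 9.

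H2-K1, the classical heavy chain with a cluster of its own, read 11.59 and 11.47 on day 0, 10.56 and 10.55 on day 4, 10.89 and 10.90 on day 9, and 11.17 and 11.33 with KU55933. No 2 groups overlapped, and the order from high to low was day 0, KU55933, day 9 and day 4. It fell by 0.97 ± 0.11 on day 4 (1.96-fold, adjusted p = 0.000159) and stood 1.55-fold lower on day 9 than on day 0 (adjusted p = 0.00171). Between day 4 and day 9 the difference of 0.34 did not pass (adjusted p = 0.0613), whereas cells with KU55933 stood 0.69 ± 0.11 above day 4 (1.61-fold, adjusted p = 0.00329). Against day 0 the KU55933 cells differed by -0.28 (adjusted p = 0.0635).

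The H2-Q2/H2-D1 cluster followed a similar order. Its arrays read 6.21 and 6.38 on day 0, 5.55 and 5.50 on day 4, 5.62 and 5.60 on day 9, and 5.71 and 5.80 with KU55933. Day 0 arrays stood above all others. It fell by 0.77 ± 0.11 on day 4 (1.71-fold, adjusted p = 0.000527), stood 1.61-fold lower on day 9 (adjusted p = 0.00107) and 1.45-fold lower with KU55933 (adjusted p = 0.00363) than on day 0. The 3 activated groups did not differ past the threshold here. H2 heavy chains are near-identical to one another and differ between mouse strains, so which copy a cluster reads is uncertain for H2-K1 and H2-T23 as well.

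H2-T23, which encodes the Qa-1 heavy chain, went another way. It read 8.12 and 7.93 on day 0, 7.88 and 7.88 on day 4, 8.40 and 8.37 on day 9, and 8.54 and 8.53 with KU55933. Both day 9 groups stood above all arrays of day 0 and day 4, and the change from day 0 to day 4 did not pass (-0.15, adjusted p = 0.287). It rose from day 4 by 0.50 ± 0.11 to day 9 (1.42-fold, adjusted p = 0.012), a call lost without any 1 array of these 2 groups (adjusted p from 0.0538 to 0.0773), and by 0.66 ± 0.11 to KU55933 (1.58-fold, adjusted p = 0.00388). Against day 0 it was 1.28-fold higher on day 9 (adjusted p = 0.0245). That last call was lost without replicate 2 of day 0 (adjusted p = 0.062) or either day 9 array (0.104 and 0.0773) and when arrays were centred on their medians over the tested rows (0.14, adjusted p = 0.346), and the change had the other sign after quantile normalization (-0.05). With KU55933 it was 1.43-fold above day 0 (adjusted p = 0.00464), a call also lost after centring (0.23, adjusted p = 0.13).

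B2m, the light chain shared by these heavy chains, read 12.27 and 12.40 on day 0, 12.41 and 12.49 on day 4, 12.69 and 12.65 on day 9, and 12.63 and 12.58 with KU55933. The groups were in the order day 0, day 4, KU55933 and day 9 without overlap, and all group means lay within 0.34. Only the rise to day 9 passed (0.34 ± 0.11, 1.26-fold, adjusted p = 0.0281), and it did not pass after centring (0.12, adjusted p = 0.357), nor without any 1 of 5 arrays, replicate 1 of day 0 and both of day 4 and of day 9 (adjusted p from 0.0507 to 0.116). On day 4, when H2-K1 and the H2-Q2/H2-D1 cluster fell, B2m had no called change (0.12, 95% interval -0.13 to 0.37). B2m read close to the highest value of each array (12.85 to 13.11), where array signals can understate a change; whether they do so here was not tested.

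The peptide transporter and its partner tapasin changed by less than 2-fold in every comparison. Tap1 read 9.22 and 9.14 on day 0, 9.33 and 9.25 on day 4, 9.35 and 9.37 on day 9, and 9.57 and 9.53 with KU55933. The groups followed this order without overlap in neighbouring steps. Its only call was KU55933 against day 0 (0.37 ± 0.10, 1.29-fold, adjusted p = 0.016), and it was lost without either KU55933 array (adjusted p = 0.0768 and 0.0578). Tap2, which encodes the partner subunit, read 6.94 and 7.25 on day 0, 7.55 and 7.37 on day 4, 7.79 and 7.89 on day 9, and 7.80 and 7.88 with KU55933. The 2 day 9 groups overlapped, with a difference of -0.00 (95% interval -0.32 to 0.32), and both stood above day 0 by 0.74 ± 0.14 (1.67-fold, adjusted p = 0.00237 and 0.0023). On day 4 the difference of 0.36 just missed (adjusted p = 0.054).

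Tapbp, which encodes tapasin, read 8.69 and 9.04 on day 0, 9.10 and 9.02 on day 4, 9.16 and 9.14 on day 9, and 9.41 and 9.35 with KU55933. The 2 day 0 arrays lay 0.35 apart, and day 0 overlapped with day 4. It passed only for KU55933 against day 0 (0.51 ± 0.14, 1.42-fold, adjusted p = 0.0126). Against day 0, a second Tapbp cluster changed by 0.07 on day 4, by -0.12 on day 9 and by 0.20 with KU55933. The call for KU55933 was lost when the mean of both clusters was used (0.36, adjusted p = 0.0546). It was also lost without replicate 1 of KU55933. After centring, neither Tap1 (0.09, adjusted p = 0.488) nor Tapbp (0.23, adjusted p = 0.14) passed in that comparison, while Tap2 did (0.46, adjusted p = 0.0119). After quantile normalization Tap2 did not pass there either (0.32, adjusted p = 0.0522).

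Erap1, the aminopeptidase that trims peptides to the length class I binds, changed most of the 10. It read 6.71 and 7.02 on day 0, 8.90 and 8.95 on day 4, 8.14 and 8.14 on day 9, and 8.35 and 8.31 with KU55933. No 2 groups overlapped, with day 4 highest and day 0 lowest. It rose by 2.06 ± 0.13 on day 4 (4.18-fold, adjusted p = 7.2e-06) and fell from there by 0.79 ± 0.13 to day 9 (1.73-fold, adjusted p = 0.00316). It remained 2.42-fold above day 0 on day 9 (adjusted p = 8.36e-05) and 2.77-fold above it with KU55933 (adjusted p = 3.79e-05). The KU55933 cells stood 1.51-fold below day 4 (adjusted p = 0.0123), a call lost without either array of day 4 or of KU55933 (adjusted p from 0.062 to 0.0826). The promoter window of Erap1 held none of the motifs.

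Nlrc5, the class I transactivator, read 7.60 and 7.96 on day 0, 6.84 and 6.52 on day 4, 6.46 and 6.47 on day 9, and 6.79 and 6.57 with KU55933. Every activated array stood below both day 0 arrays, and day 4 overlapped with KU55933. It fell by 1.10 ± 0.17 on day 4 (2.14-fold, adjusted p = 0.000763), stood 2.49-fold lower on day 9 (adjusted p = 0.000299) and 2.15-fold lower with KU55933 (adjusted p = 0.000778) than on day 0. The 3 activated groups did not differ past the threshold (lowest adjusted p = 0.399, day 9 against day 4). Nlrc5 also had the widest replicate gap of the 10 genes on day 0 (0.36), on day 4 (0.32) and with KU55933 (0.23).

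Calhm6 had a transient pattern. It read 4.92 and 5.06 on day 0, 6.28 and 6.44 on day 4, 4.85 and 5.27 on day 9, and 5.35 and 5.50 with KU55933. The day 4 arrays stood above all others, and day 9 overlapped with day 0. It rose by 1.37 ± 0.16 on day 4 (2.59-fold, adjusted p = 0.000173) and fell by 1.30 ± 0.16 from day 4 to day 9 (2.46-fold, adjusted p = 0.000834). With KU55933 it was 1.91-fold below day 4 (adjusted p = 0.00436) and 1.35-fold above day 0 (adjusted p = 0.0472). The last call was lost after centring (0.16, adjusted p = 0.366) and without any 1 of 6 arrays, those of day 0, day 4 and KU55933 (adjusted p from 0.0607 to 0.199). Of the other tested CALHM family genes, Calhm2 fell on day 4 (-0.86, adjusted p = 0.00342), and Calhm1 (-0.37) and Calhm5 (-0.09) did not pass.

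KU55933 against day 9 without inhibitor gave no call among the 10 genes. limma's unadjusted p was below 0.05 for 1 of them, beside 12% of all rows. That gene was H2-K1, at 0.35 ± 0.11 (95% interval 0.09 to 0.62, adjusted p = 0.259). The arrays of the 2 groups did not overlap for 9 of the 10 genes, 8 of them higher with the inhibitor and B2m lower, beside 48% of all rows. Changes ran from -0.07 for B2m to 0.36 for Calhm6 (95% interval -0.01 to 0.74), with a median of 0.19 beside 0.02 for all rows. The intervals reach at most 0.74, so a 2-fold change lay outside each of them, taken 1 gene at a time. They rest on a spread shared by all 4 groups. Over all rows the standard deviation was 0.27 on day 0 and 0.15 to 0.19 in the other groups, and the 2 day 9 arrays of Calhm6 lay 0.42 apart. When the variance was fitted with a mean-variance trend, H2-K1 passed (adjusted p = 0.0288). Among the 18 tested heavy chain rows 0 passed, 6 had an unadjusted p below 0.05, and 12 had higher arrays without overlap (26.5% of all rows) and 0 lower ones (21.5%). Of these heavy chain rows 4 rose with a mean-variance trend, 2 with a filter at the 75th percentile, 2 with array weights and 1 without both day 0 arrays. Over all rows, 241, 189, 242 and 179 rose under these settings, in the same order.

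Of 13 tested genes of interferon receptors and signalling 2 rose with the inhibitor, against 0.675% of all rows, and the count was 0 without any 1 array of the 2 day 9 groups and with every cluster tested. Irf7, a master regulator of type I interferon genes, rose by 1.23 ± 0.12 (adjusted p = 0.0104), and Irf9, the DNA-binding part of the complex that type I interferon activates, rose by 1.05 ± 0.13 (adjusted p = 0.0173). Both had fallen on day 9 against day 0, Irf7 by 2.64 and Irf9 by 0.73. Irf1, which drives class I promoters, did not pass between the 2 day 9 groups (0.16, adjusted p = 0.684).

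Most tested heavy chain rows were lower in activated than in fresh cells. The list held 24 genes, of which 18 rows were tested, among them 3 of the 10 genes. Some rows name several near-identical H2 genes and may read one another's transcripts, so they are not separate genes and the copy behind each is uncertain. On day 4, 13 of 18 fell and 0 rose against day 0 (median -0.89, beside 0.07 for all rows, of which 22.7% fell). H2-Q10, known as a secreted class I molecule, fell by 2.72 ± 0.14 (adjusted p = 3.05e-06) and H2-Q5 by 2.20 ± 0.14 (adjusted p = 6.84e-06). On day 9, 12 fell and 2 rose (median -0.94, with 22.4% of all rows lower), and the cluster of H2-T22 and H2-T9 was higher by 0.56 (adjusted p = 0.00816), beside H2-T23. With KU55933, 10 were lower and 2 higher than on day 0 (median -0.60, with 22.1% of all rows lower). From day 4 to day 9 with KU55933, 9 of 18 rose and 0 fell (median 0.50, with 12.2% of all rows higher), including H2-Q10 (1.51) and H2-Q4 (1.03), and 4 rose without replicate 1 of KU55933 and 5 without replicate 2 of day 4. From day 4 to day 9 without inhibitor 2 rose, H2-Q10 (1.59) and H2-T23, and 0 fell (12.2% of all rows higher and 15.6% lower). That count was 1 without any 1 array of day 4 or day 9, and 3 rose and 1 fell without either day 0 array. Centring gave 16 falls on day 4 and 13 on day 9, with 0 rises in either. Over all rows centring added falls as well, from 3434 to 6235 on day 4 and from 3376 to 4969 on day 9. With only clusters naming 1 gene, which leaves out the rows naming several, 9 rows were called on day 4. On day 9, 8 then fell and 1 rose, and with KU55933 6 were lower and 1 higher than on day 0.

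Most tested genes that make and load peptides rose on day 4. In the list of transport and loading, which holds B2m, Tap1, Tap2 and Tapbp, 8 of 13 rose and 1 fell (median 0.93, with 37.2% of all rows higher). None of those 4 was among the 8. The risers included the thiol oxidoreductase Pdia3 (1.61, adjusted p = 2.32e-05) and the chaperones Canx (1.59, adjusted p = 8.14e-06) and Calr (1.13, adjusted p = 8.07e-05), all of general use in glycoprotein folding, and Hspa5 fell (-0.71, adjusted p = 0.000882). Tapbpl, a tapasin relative that edits peptides, rose by 0.54 (adjusted p = 0.0118). All 6 tested genes of peptide trimming rose (median 1.60), with the cytosolic peptidases Lap3 (2.99, adjusted p = 7.09e-05) and Thop1 (1.93, adjusted p = 8.1e-06) beside Erap1. From day 4 to day 9, 4 of these 6 fell, Thop1 by 1.04 (adjusted p = 0.00067) and Blmh by 0.83 (adjusted p = 0.00133) among them, beside 15.6% of all rows.

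Proteasome genes rose in 8 of 10 cases on day 4 (median 0.80, with 37.2% of all rows higher), led by the constitutive catalytic subunits Psmb5 (1.65, adjusted p = 1.41e-05) and Psmb7 (1.64, adjusted p = 0.000161). Of their interferon-induced counterparts, Psmb8 (0.50, adjusted p = 0.0057) and Psmb10 (0.50, adjusted p = 0.0108) rose by less and Psmb9, which neighbours Tap1 in the MHC, did not pass (0.09, adjusted p = 0.504). Psme2, a subunit of the interferon-induced PA28 activator, fell by 1.23 (adjusted p = 0.000473). On day 9, Psmb10 was lower than on day 0 (-0.47, adjusted p = 0.0146) and Psmb8 higher (0.44, adjusted p = 0.0106). Psmb9 did not pass there (-0.14, adjusted p = 0.304). After centring, the rises on day 4 numbered 7 for transport and loading, 6 for trimming and 5 for the proteasome. Over all rows the rises on day 4 went from 5611 to 4160 with centring.

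**Figure D3:**
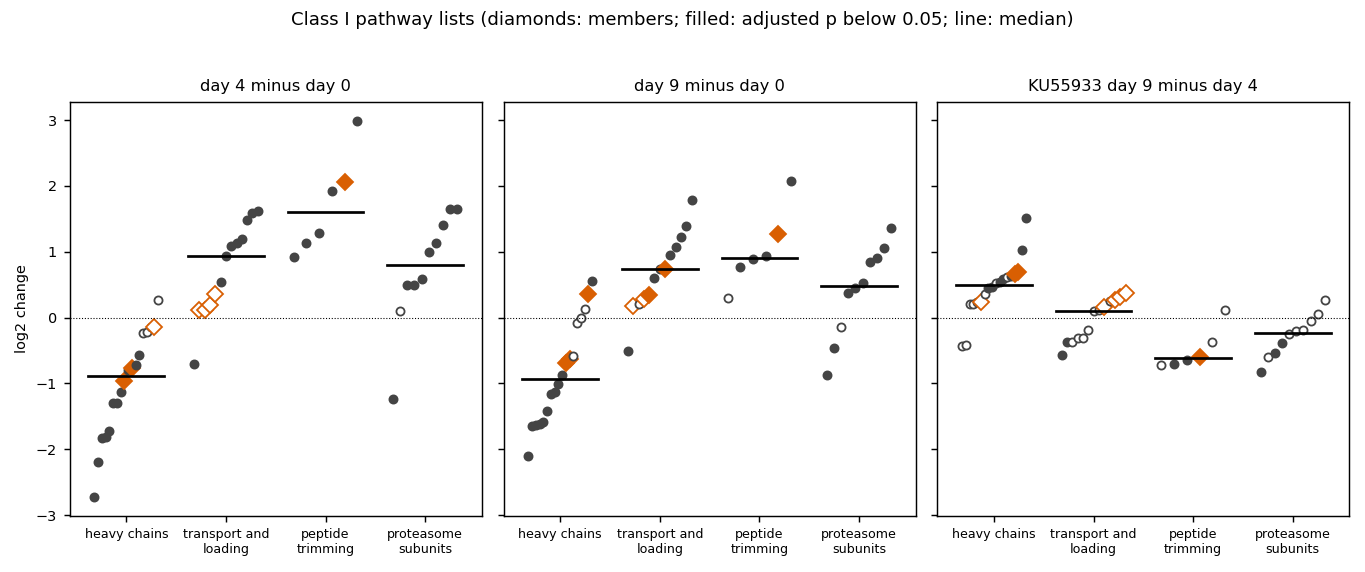
Log2 change of every tested row in 4 class I pathway lists for 3 comparisons; diamonds are those of the 10 genes that belong to a list, filled symbols have an adjusted p below 0.05, and lines are medians. Heavy chains lie mostly below 0 and trimming genes above it on day 4 and day 9, and the medians of both turn for KU55933 against day 4.

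Of 15 tested class I transcription factors, 6 rose on day 4, beside 37.2% of all rows, and 5 fell, beside 22.7% (median -0.21). After centring 4 rose and 9 fell. Over all rows centring took the rises on day 4 from 5611 to 4160 and the falls from 3434 to 6235. Irf1 fell by 1.96 ± 0.13 (adjusted p = 8e-06) and Irf2, which binds the same element, by 1.22 ± 0.14 (adjusted p = 0.000162), and both were also called lower on day 9. The NF-Y subunits Nfya (0.94, adjusted p = 0.000161) and Nfyb (1.16, adjusted p = 0.000153), which bind the Y box, rose. Of the RFX proteins that bind the X box, Rfxap rose by 1.01 (adjusted p = 0.0159), Rfxank fell by 0.46 (adjusted p = 0.012) and Rfx5 did not pass (-0.21, adjusted p = 0.209). Ezh2, a histone methyltransferase of gene silencing, rose by 1.40 on day 4 (adjusted p = 2.45e-05) and fell by 1.39 to day 9 (adjusted p = 9.29e-05).

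Class I-like molecules moved in both directions. Ulbp1, a stress ligand of the activating receptor NKG2D, rose by 4.25 on day 4 (adjusted p = 8.97e-07), and Mr1, which presents vitamin B metabolites, by 1.96 on day 4 (adjusted p = 6.4e-06) and by 3.03 on day 9 (adjusted p = 1.1e-06) against day 0. Hfe, a regulator of iron uptake, fell by 2.23 on day 4 (adjusted p = 1.22e-05) and the neonatal Fc receptor Fcgrt by 0.82 (adjusted p = 0.0274). The other 2 tested genes of this list, Procr (0.36) and Cd1d1 (0.33), did not pass on day 4.

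Markers of other cells that carry class I also changed between the groups. All 9 tested class II presentation genes, used by B cells, dendritic cells and macrophages, fell on day 4 (median -1.75) and again stood lower on day 9 (median -3.02) than on day 0, among them H2-Ab1 by 5.57 (adjusted p = 3.26e-07). Of the 9, H2-DMb1 lay below the array median from day 4 on and H2-DMb2 from day 9, so their falls are bounds. Their mean signal per array was 8.24 to 8.44 on day 0, 6.25 to 6.43 on day 4, 4.35 to 4.56 on day 9 and 4.45 to 4.49 with KU55933. Ciita, the class II counterpart of Nlrc5, fell by 2.57 on day 4 (adjusted p = 3.42e-05). All 6 tested B cell markers and all 5 tested dendritic markers fell on day 4. Over the 7 rows of each list, untested ones included, mean signals on day 0 were 6.53 to 6.83 and 6.27 to 6.46. Of all marker lists the megakaryocyte list had the lowest median change from day 0: all 5 fell on day 4 (median -3.35) and on day 9 (median -4.57), and their mean was 8.14 to 8.37 on day 0, 4.67 to 5.05 on day 4 and 3.84 to 3.95 on day 9. Of 8 macrophage markers 5 fell and 2 rose on day 4, and 7 were lower and 1 higher on day 9 (median -2.43, mean 6.94 to 7.06 on day 0 and 4.59 to 4.68 on day 9). Of 8 T cell markers 5 were lower and 2 higher on day 4, and likewise on day 9. Of all rows, 22.7% were lower and 37.2% higher on day 4 than on day 0, and 22.4% and 35.7% on day 9. From day 4 to day 9, 7 of 9 class II genes, 5 of 6 B cell, 7 of 8 macrophage and 3 of 5 megakaryocyte markers fell (15.6% of all rows). In that step 1 macrophage, 1 dendritic and 2 T cell markers rose, and 1 T cell marker fell. The 18 heavy chain rows had 2 rises there, with 12.2% of all rows higher, and 0 falls. By day 9 the B cell markers Vpreb3, Ebf1 and Ms4a1 lay below the array median, and the list averaged 3.58 to 3.64. The part of these cells in the falls of H2-K1, the H2-Q2/H2-D1 cluster and Nlrc5 from day 0 was not tested, and fewer such cells cannot be told apart from less RNA per cell in these bulk samples. Neutrophil markers were high on day 4 only (mean 5.91 to 5.95, beside 3.86 to 4.08 on day 0 and 3.08 to 3.11 on day 9), the pattern of Calhm6, and their part in it was not tested. The 10 NK cell markers averaged 9.84 to 9.97 on day 0 and 10.24 to 10.35 in the activated groups, with none below the array median. They did not move as 1: 5 were called higher and 3 lower on day 4 than on day 0, and likewise on day 9. With KU55933, 4 were higher (36.9% of all rows) and 3 lower (22.1%) than on day 0. Between the 2 day 9 groups 0 of 6 B cell and 0 of 8 neutrophil markers passed, and 1 of 5 dendritic and 1 of 8 macrophage markers fell. Of all rows, 0.675% were higher and 0.245% lower with KU55933 there. H2-Ab1 passed as the only class II gene (0.96, adjusted p = 0.0362). That call was lost without any 1 array of day 4, day 9 or KU55933, with no dim filter, after quantile normalization, with the replicate block, with every cluster tested and with only the 4 arrays compared.

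Array medians over all clusters ranged from 3.66 to 3.91, highest on both day 0 arrays. The medians over the tested rows went the other way: they were on average 0.34 higher on day 4, 0.22 higher on day 9 and 0.28 higher with KU55933 than on day 0. Centring used the medians of the tested rows, so it lowers every change from day 0 by these amounts. After centring, H2-K1 fell by 1.31 on day 4, the H2-Q2/H2-D1 cluster by 1.11 and Nlrc5 by 1.44, while Erap1 rose by 1.72 and Calhm6 by 1.03, and all 5 were called under each of the 3 scalings. The day 4 changes of B2m (-0.22), Tap1 (-0.23) and Tapbp (-0.15) turned negative after centring without passing. H2-T23 then passed as a fall on day 4 (-0.49, adjusted p = 0.0087). Among all called rows 62% were higher on day 4 than on day 0 as deposited and 40% after centring. The share was 61.5% and 47% on day 9 against day 0, and 43.9% and 59.6% on day 9 against day 4. With KU55933 it was 62.5% and 43.9% against day 0, and 73.4% and 59% against day 9.

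**Figure D4:**
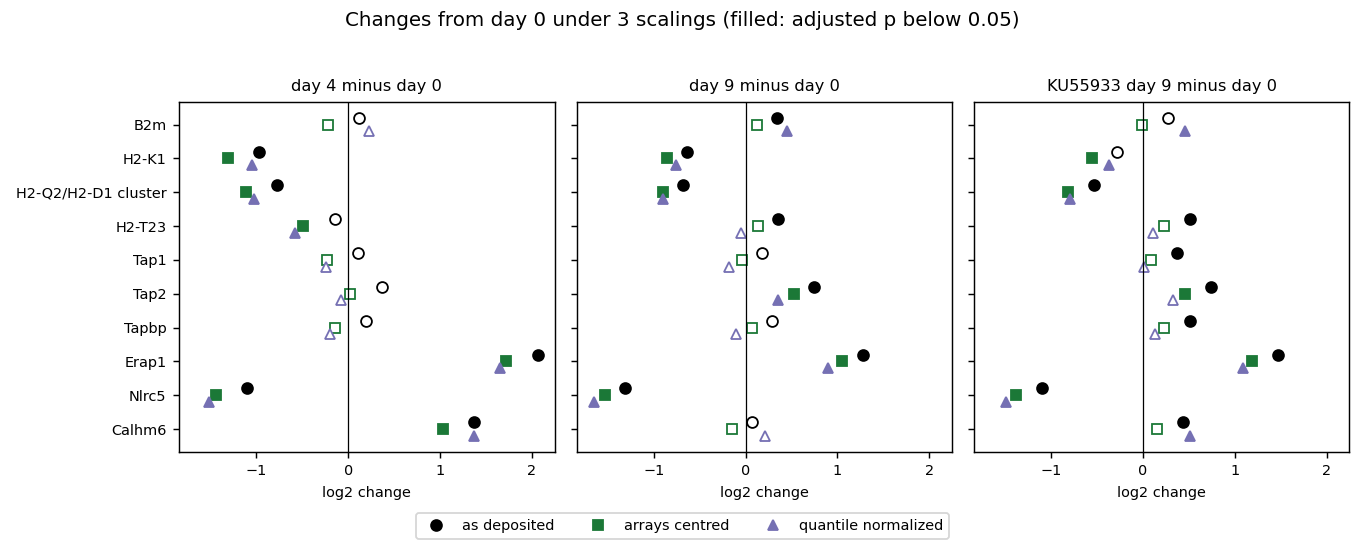
Log2 change from day 0 of each gene under 3 scalings of the arrays, filled where the adjusted p is below 0.05. H2-K1, the H2-Q2/H2-D1 cluster, Erap1 and Nlrc5 keep their side of 0 in all 3 comparisons, and the other 6 genes, Calhm6 among them, lie on both sides of 0 in at least 1.

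Among themselves the 10 genes fell into unlike profiles. Over the 8 arrays, after each row's own mean was subtracted, the root-mean-square difference was smallest between B2m and Tap1 (0.11) and between Tap1 and Tapbp (0.12), all 3 of which moved little. It was largest between Erap1 and Nlrc5 (1.23). For Nlrc5 the 3 nearest other genes were Dync1h1 (0.07), Cox7c (0.08) and Arglu1 (0.10), and for Calhm6 they were Septin10 (0.11), Slc39a10 (0.12) and Rad50 (0.13). Flat profiles are close to many genes: Tap1 was nearest to Setd7 (0.04), Dync2h1 (0.04) and Lin7c (0.04), and B2m to Tom1l1 (0.05), Mknk2 (0.06) and Casp9 (0.06).

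The authors' deposited table of group averages lists 9 of the 10 clusters, all but Tapbp. Its false discovery rate p-values over all conditions were lowest for Erap1 (0.00369) and H2-K1 (0.00679) and highest for B2m (0.0578) and Tap2 (0.0549).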

How the data were processed

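Gene expression was measured on 8 arrays in 4 groups of 2 samples, grouped by their labels. The deposited values are log2 signals for 41345 transcript clusters, made with RMA and the Transcriptome Analysis Console per the submitters' processing notes; for neither is a version or build given in the sources used here. A second deposited table holds the authors' average log2 signals per group for 11036 clusters with ANOVA and false discovery rate p-values over all conditions, per the file headers.

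From these values, each gene was represented by its brightest cluster naming it alone, and each cluster naming several genes was kept as a row of its own (23521 clusters name 1 gene, 1820 several and 16004 none in the supplied annotation). Rows reaching the array median (percentile 50) on at least 2 arrays were tested, 15101 in all. limma 3.58.1 in R 4.3.3 fitted group means to all 8 arrays without a block (residual degrees of freedom 4, prior 3.65). Moderated tests of 6 comparisons and an F test were adjusted by Benjamini-Hochberg over all rows and called below 0.05. The number of arrays limits the precision of every value. The code was tested on simulated data.

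The 10 genes and the lists were chosen with earlier results of these data known. Named genes are the 10, in each list and comparison the 2 largest called changes each way without overlap, fixed regulators and proteasome genes, and the 3 rows nearest to 4 of the 10 by root-mean-square difference, without predicted genes. List members named with values that did not pass were chosen after their values were seen. Same-numbered replicates did not deviate together (correlations of -0.03 to 0.06 across rows), so no block was used. The labels do not say whether same-numbered samples share a source, and these correlations cannot decide it. Alternatives were other dim filters, other choices of cluster, centring each array on its median over the tested rows, quantile normalization, other variance models, array weights, the replicate block, each array left out, only the arrays compared, and the authors' averages. Fitting without day 0 was added after the data were seen. Promoter windows came from RefSeq (GRCm38.p6). Figures were drawn with Python 3.11.15 and matplotlib 3.10.9.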

Additional observations from a re-analysis of the deposited data

How the results depend on the processing

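Of 1278 repeats of single-gene changes, 1152 kept their direction and side of the threshold, 52 lost the call, 53 gained it and 21 had the other sign; the cause was not tested. Repeats with the authors' averages have no p-value per comparison, so they counted as kept unless a called change switched sign. In every alternative that gave them, 5 calls on day 4 against day 0 held, those of H2-K1, the H2-Q2/H2-D1 cluster, Erap1, Nlrc5 and Calhm6. Centring turned the day 4 changes of B2m (-0.22), Tap1 (-0.23) and Tapbp (-0.15) against day 0, the day 9 changes of Tap1 (-0.038) and Calhm6 (-0.14), and the KU55933 changes of B2m against day 0 (-0.0091) and Nlrc5 against day 4 (0.058). Quantile normalization turned the day 4 changes of Tap1 (-0.24), Tap2 (-0.076) and Tapbp (-0.20), the day 9 changes of H2-T23 (-0.046), Tap1 (-0.18) and Tapbp (-0.11), and the KU55933 changes of B2m against day 9 (0.0084) and Nlrc5 against day 4 (0.025). The mean of its clusters turned Tapbp between day 4 and day 9 (-0.046). With 1 array left out, Calhm6 on day 9 against day 0 ran from -0.14 to 0.28, Tap2 under KU55933 against day 9 from -0.052 to 0.052, and Nlrc5 under KU55933 against day 4 from -0.16 to 0.16; none of these was called.

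Of the 10 genes, the number called between day 4 and day 9 was 5 with a filter at the 75th percentile, 6 after centring, 6 with a mean-variance trend, 5 with array weights and 5 without the day 0 arrays, an alternative chosen after seeing the data. Over all rows the same settings called 4262, 4573, 4768, 5615 and 5298, beside 4193 in the main fit. For KU55933, calls over all rows were 9831 and 11507 against day 0, after centring and with every cluster tested. They were 333 against day 9 with a trend, and 4488 and 5407 against day 4 with a trend and with array weights. The number of the 10 genes called in these was 5, 5, 1, 7 and 7, in the same order. Leaving out 1 array gave 2 to 5 between day 4 and day 9, 5 (without replicate 1 of KU55933) to 9 (without replicate 2 of day 0) for KU55933 against day 0, 3 to 6 against day 4, 5 to 7 for day 4 and for day 9 against day 0, and 7 to 9 for the F test. A lone array is then assumed to vary like the other groups. Whether same-numbered samples share a source is not given. With the replicate block the counts of called genes stayed at 5, 7, 3, 0, 4 and 8. The calls over all rows for KU55933 against day 9 then went from 139 to 68. That count was 1 without replicate 2 of day 9 or replicate 1 of KU55933, and 337 with array weights. Precision is limited by 2 arrays a group, while all 10 genes were above the array median on every array.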
